A study of Mus musculus with 9 samples.

Results

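The comparison described here set Compound E, an inhibitor of γ-secretase, against no inhibitor in cultures on a feeder layer that presents the Notch ligand Delta-like 1. It compared 6 of the series' 9 arrays, the 3 titled OP9-DL1 with Compound E and the 3 titled OP9-DL1. The test took in 18193 genes, each read by its brightest probe set. Both groups began with LSK cells, bone marrow cells that are Lineage-, Sca-1+ and c-Kit+ and hold the stem cells and earliest progenitors of blood, sorted from wild-type C57/Bl6 mice. The cells were kept for 3 days on OP9-DL1, a bone marrow stromal line made to display Delta-like 1, and what had not attached was then taken for RNA, of which 25 ng was amplified. Treated cultures received Compound E at 1 µM. The labels name no vehicle for the untreated ones. The other 3 arrays, from the same cells on OP9-GFP, the feeder without the ligand, are not compared here and are shown as side values. They did enter the fit, which took its estimate of spread and its choice of probe sets from all 9 arrays. Whether replicates were separate animals or cultures is not in the labels. The p-values below therefore cover only the spread among these arrays, and part of it may be technical.

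Notch receptors sit in the cell membrane and are cut in sequence when they bind a ligand on a neighbouring cell. An ADAM protease removes the outer part, and γ-secretase, a complex of presenilin, nicastrin, Aph1 and Pen-2, then frees the intracellular part. That part enters the nucleus, binds the DNA-binding protein CSL (Rbpj) and turns on genes such as Hes1, Hey1, Nrarp and Dtx1. In blood-forming cells the pathway is best known for directing early progenitors towards the T lineage. γ-Secretase also cuts many other membrane proteins.

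Arrays of one group resembled each other closely. Pearson correlations over all 45101 probe sets, controls included, were 0.9972 to 0.9977 within OP9-DL1 and 0.9952 to 0.9962 with Compound E. Between the groups they were 0.9718 to 0.9765. The highest value of 27 probe sets for bacterial transcripts was 3.64 on the log2 scale, and a group whose mean did not exceed it is called at background here. The general leukocyte genes Ptprc, Laptm5 and Coro1a read between 11.24 and 13.23 on all 6 arrays. The feeder genes Cxcl12 and Sparc were also bright, between 11.52 and 12.61. Globin Hba-a1, the B-cell gene Cd79a, the NK-cell gene Ncr1, the T-cell gene Cd3e and the endothelial gene Cdh5 were at background in both groups. These are bulk samples, in which fewer cells of a type and less RNA per cell cannot be told apart.

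Of the 18193 genes, 8500 (46.7%) differed between the groups at an adjusted p under 0.05 (limma, Benjamini-Hochberg). With Compound E 4574 (25.1%) were higher and 3926 (21.6%) were lower, and those genes alone are said below to have risen or fallen. The change was at least 2-fold for 814 higher genes (4.47%) and 900 lower ones (4.95%), at least 4-fold for 181 and 247, and at least 16-fold for 9 and 11. The 3 and 3 arrays did not overlap for 9567 genes (52.6%). Over all genes the median log2 difference was 0.08 and the median SE 0.10. Among called genes 53.8% were higher. Centring the arrays on their median gene made that share 62.3%, and centring them over all probe sets made it 73.7%, which put the median of all genes at 0.21. Counts of a gene list below are read against the 25.1% and 21.6% of all genes. Over the 13395 genes that were not at background in both groups, 30.4% were higher and 28.9% lower. Those shares are the nearer reference for lists with few genes at background.

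**Figure D1:**
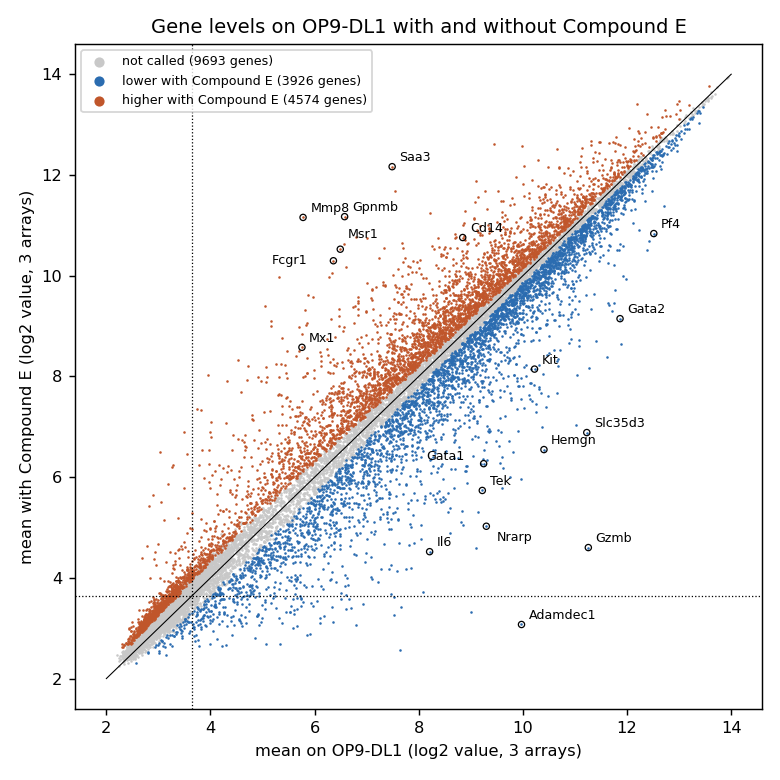
Mean log2 value of each of 18193 genes on OP9-DL1 (horizontal axis, 3 arrays) and on OP9-DL1 with Compound E (vertical axis, 3 arrays). Orange points are the 4574 genes that were higher and blue points the 3926 that were lower at an adjusted p under 0.05, grey points were not called, the solid line marks equal values and dotted lines mark the background value of 3.64. Gzmb, Adamdec1 and Nrarp lie far below the line and Mmp8, Saa3 and Gpnmb far above it.

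**Figure D2:**
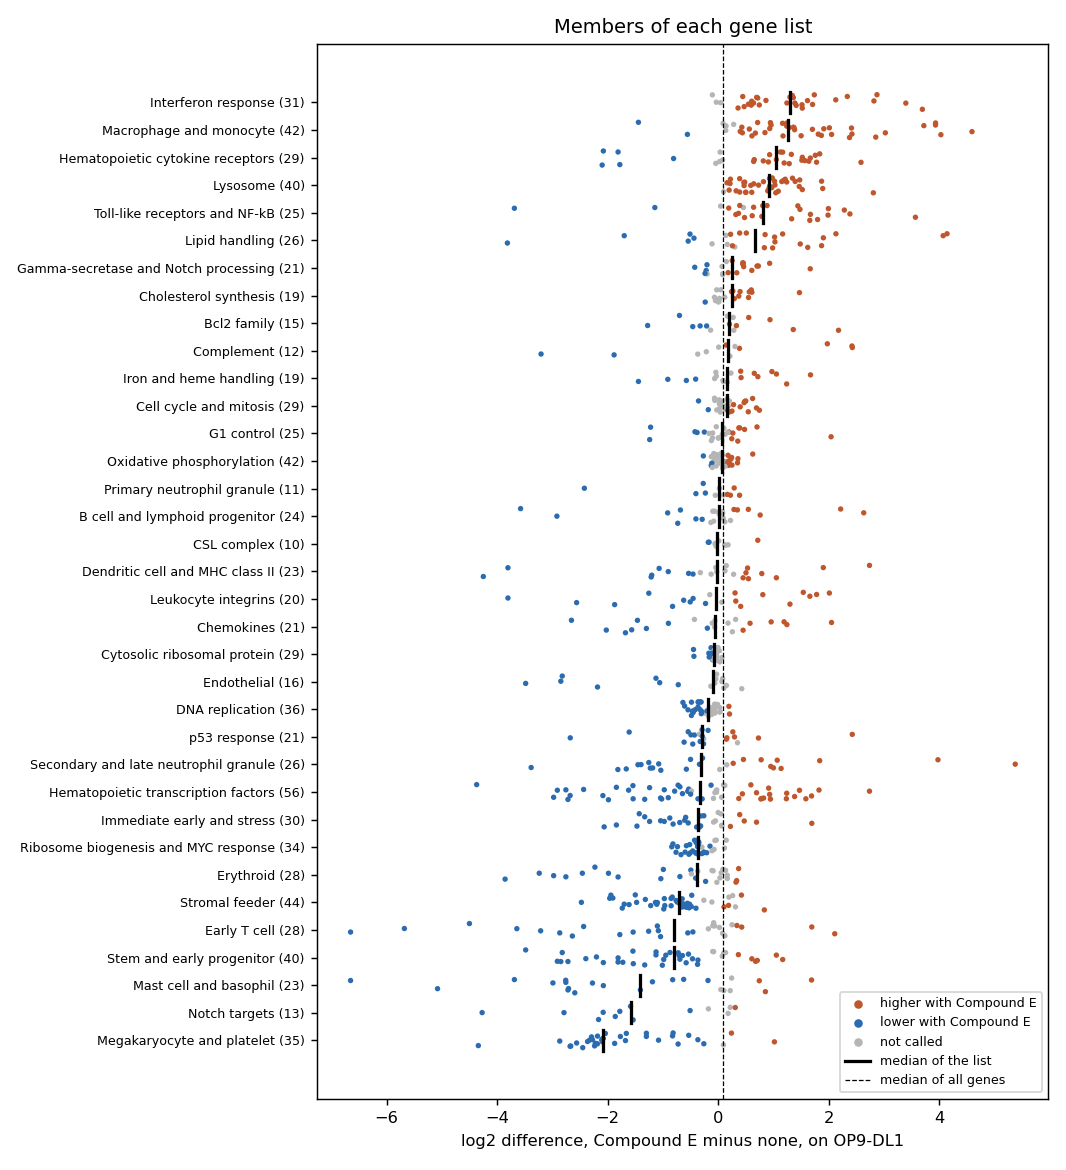
Log2 difference (Compound E minus none, on OP9-DL1) of every measured member of each gene list with at least 10 such members, 1 point a gene. Black bars are list medians and the dashed line is the median of all genes, 0.08. The medians run from -2.08 for the megakaryocyte and platelet genes to 1.30 for the interferon-response genes, and several lists near the dashed line hold genes that moved far in both directions.

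Among the receptors, Notch3 fell while Notch1 and Notch2 rose slightly. Notch3, a receptor gene that is itself a target of Notch signalling, read 9.05, 8.85 and 8.83 on OP9-DL1 and 5.96, 6.18 and 6.22 with Compound E. The groups were far apart, with a log2 difference of -2.79 (SE 0.12, adjusted p = 1.20e-11). Notch1 differed by 0.31 (SE 0.06) and Notch2 by 0.33 (SE 0.04), and neither had overlapping arrays, though a second probe set of Notch1 differed by 0.07. Notch4 lay near background, with a difference of -0.30 that did not pass (adjusted p = 0.116). On OP9-GFP, Notch3 read 6.39, 6.26 and 5.96.

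Of 8 ligand genes measured, Jag1, Jag2 and Dlk1 fell, the last 2 by 0.37 and at least 1.28-fold, and Dner rose. Second probe sets of Jag2 and Dlk1 differed by -0.11 and 0.006. Jag1, a canonical ligand, read 10.24, 10.17 and 10.19 without the inhibitor and 8.88, 8.63 and 8.64 with it, a 2.79-fold fall (adjusted p = 4.84e-11). All treated arrays lay below all untreated ones, although its other probe sets gave differences from -1.23 to 0.20. Dner, a non-canonical ligand, read 3.999, 3.62 and 4.35 on OP9-DL1 and 6.11, 5.38 and 5.83 with Compound E, a log2 difference of 1.79 (SE 0.19), with 0.61 on a further probe set. Dll1, the gene of the ligand that the feeder carries, was at background in both groups and differed by less than 0.01 (not called). On OP9-GFP, the feeder without the ligand, Dll1 read 3.36, 3.21 and 3.18. Its only probe set thus did not tell the feeders apart and gives no reading of the ligand's level. Dll4 and Dll3 were at background too. Feeder genes moved in the same direction as Jag1: 35 of 44 stromal genes fell, and their part in its fall was not tested.

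Known Notch targets mostly fell: 9 of 13 measured were lower, 8 of them at least 2-fold, 1 was higher and 3 were not called, counting Notch3 and Notch1, which are targets too. Their median log2 difference was -1.59, against 0.08 for all genes. Nrarp, a feedback inhibitor of the pathway, read 9.27, 9.43 and 9.19 on OP9-DL1 and 5.27, 4.99 and 4.82 with Compound E. That was the largest fall of the list, 19.3-fold (log2 difference -4.27, SE 0.12, adjusted p = 5.66e-14), and the treated arrays also lay below the 6.62, 6.59 and 6.62 of OP9-GFP. Hes1, a repressor that CSL activates directly, went from 5.74, 6.27 and 6.15 to 4.21, 3.94 and 3.77, a 4.23-fold fall. Hey1, a related repressor, went from 7.10, 6.98 and 7.16 to 4.64, 5.42 and 4.68, a 4.48-fold fall. In both, every treated array was below every untreated one.

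Myc, the growth regulator, read 9.20, 9.22 and 9.42 and then 7.50, 7.55 and 7.21, a log2 difference of -1.86 (SE 0.10, adjusted p = 9.99e-11). Its groups did not overlap, and the OP9-GFP arrays read 8.31, 8.25 and 8.15. The remaining targets that fell reached background with Compound E, so only a bound can be given. It sets the mean of the bright group against, on each array of the dim group, the higher of that array's own bacterial maximum and the gene's own value. By this bound the interleukin-2 receptor chain Il2ra fell at least 2.79-fold, the T-lineage factor Gata3 at least 2.75-fold and the ubiquitin ligase gene Dtx1 at least 2.28-fold. A second probe set of Il2ra differed by 0.02. Hey2 was called lower with both groups at background. Hes5, Heyl and Ptcra were not called, with differences of 0.18, 0.22 and -0.18, and the last of these, the pre-T-cell receptor gene, was at background with Heyl. On the log2(value + 32) scale, which shrinks dim genes, the median of the list was -0.59.

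**Figure D3:**
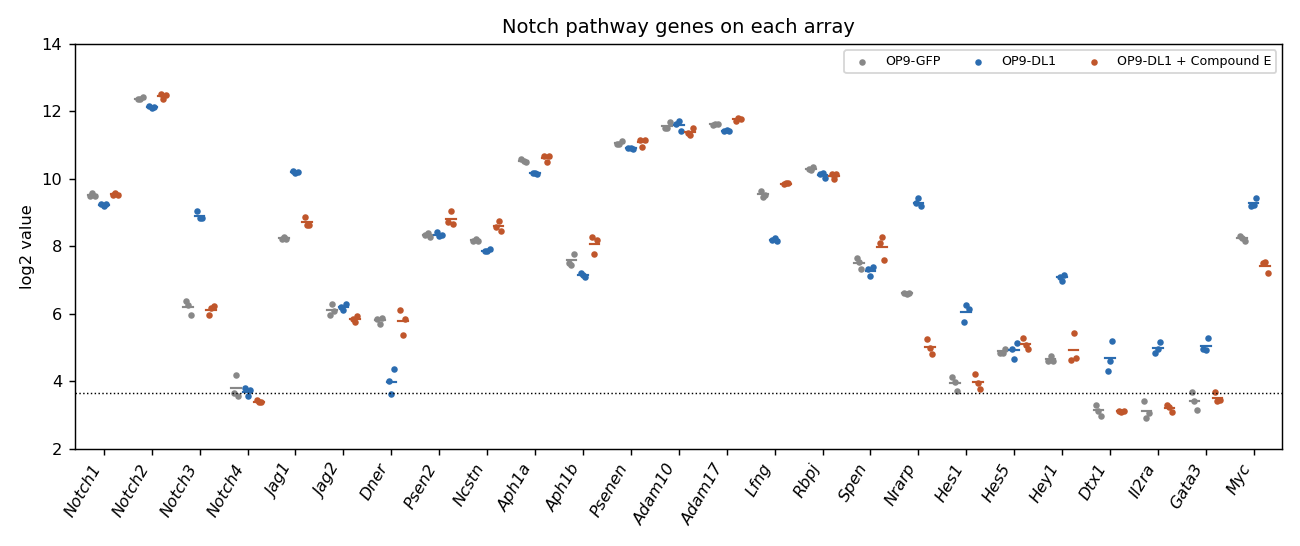
Log2 value on each array (1 point an array, bar at the mean of 3) of genes of the Notch pathway in cells on OP9-GFP (grey), OP9-DL1 (blue) and OP9-DL1 with Compound E (orange). The dotted line marks the background value of 3.64. Notch3, Jag1, Nrarp, Hes1, Hey1 and Myc are lower on all orange than on all blue points, Lfng and Aph1b are higher, and the points of Rbpj overlap.

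Genes for the machinery that cuts and modifies the receptors were more often higher than lower: 12 of 21 rose, 4 fell and 5 were not called, with a median of 0.25. Among γ-secretase subunits, nicastrin (Ncstn) read 7.85, 7.85 and 7.91 on OP9-DL1 and 8.57, 8.76 and 8.47 with the inhibitor, a log2 difference of 0.73 (SE 0.08, adjusted p = 1.43e-06). Aph1b rose by 0.93 (SE 0.12), presenilin 2 (Psen2) by 0.46, Aph1a by 0.45 and Psenen, which encodes Pen-2, by 0.18. The groups of these 5 genes did not overlap, and the second probe set of Ncstn differed by 0.11. Lfng, the glycosyltransferase Lunatic fringe that modifies Notch receptors, showed the largest difference of the list. It read 8.18, 8.23 and 8.17 and then 9.85, 9.87 and 9.87, a 3.18-fold rise (adjusted p = 1.355e-12), with 0.98 on its second probe set. On OP9-GFP it read 9.63, 9.48 and 9.54.

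Numb, an inhibitor of Notch, rose by 0.70, the protease gene Furin by 0.61, Neurl1a by 0.46, Numbl by 0.45, Adam17 by 0.34 and Sel1l by 0.25. Pofut1 and Fbxw7 were called lower, by 0.24 and 0.22, and Mfng, Rfng, Poglut1, Itch and Neurl3 were not called. Other probe sets of Neurl1a ranged from -0.07 to 0.57, and those of Pofut1 (0.06 to 0.32) and Fbxw7 (0.24) were above 0. Adam10, which makes the first cut, differed by -0.20 and the ligand-activating Mib1 by -0.42, but other probe sets ranged from -0.91 to 0.19 for Adam10 and from -0.21 to 0.87 for Mib1. Of the 10 genes of the CSL complex, Rbpj itself read 10.15, 10.18 and 10.04 and then 10.14, 9.98 and 10.14, a difference of -0.04 that was not called. The only rise was that of Spen, a corepressor, by 0.72 (SE 0.14). Maml1 and Maml2, coactivators, and Ep300 and Crebbp, acetyltransferases, differed by 0.14, 0.01, 0.18 and -0.05 (none called, as were Kdm5a and Cir1), while Hdac1 (-0.18) and Snw1 (-0.16) were called lower.

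Several of these small calls changed when 1 array was left out, which also leaves fewer arrays to the test. Without OP9-DL1 replicate 1 those of Jag2, Adam10, Pofut1, Numbl, Fbxw7 and Hdac1 were lost, without replicate 2 those of Adam10, Pofut1 and Snw1, and without replicate 3 those of Jag2, Psenen, Numbl and Snw1. Among the treated arrays, leaving out replicate 1 ended the calls of Psenen, Adam10, Pofut1, Numbl and Fbxw7. Leaving out replicate 2 ended those of Jag2, Adam10, Numbl, Snw1 and Hdac1, and leaving out replicate 3 that of Psenen. Each of these calls was lost in more than 1 of these fits. The adjusted p then lay between 0.0502 (Pofut1) and 0.188 (Adam10), and the 4 falls among the processing genes became 1 or 2. Calls were gained by Notch4 without OP9-GFP replicate 2 (adjusted p = 0.0471), Heyl without Compound E replicate 2 (0.0454), Ptcra without OP9-DL1 replicate 3 (0.0498) and Ep300 without OP9-GFP replicate 3 or Compound E replicate 2 (0.0363 and 0.0187). With the mean of all probe sets of a gene, the calls of Mib1, Pofut1, Fbxw7 and Snw1 were also lost.

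Transcription factors of blood lineages went both ways. Of 56 measured, 29 fell, 17 of them at least 2-fold, 18 rose, 8 of them at least 2-fold, and 9 were not called. Gata1, the erythroid and megakaryocyte factor, read 9.28, 9.18 and 9.28 on OP9-DL1 and 6.31, 6.22 and 6.27 with Compound E, a 7.88-fold fall (adjusted p = 5.66e-14). Gata2 read 11.89, 11.88 and 11.83 and then 8.92, 9.28 and 9.24, a 6.58-fold fall. Neither gene had overlapping groups, and the OP9-GFP values, 7.09 to 7.11 for Gata1 and 9.96 to 10.11 for Gata2, lay between them.

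Gfi1b, a repressor of the same lineages, fell by 2.76 on the log2 scale, Meis1, a partner of Hox proteins, by 2.91, and Ikzf2, an Ikaros-family factor, by 2.68. One probe set of Ikzf2 differed by only -0.30. Spic, an Ets-family factor of red pulp macrophages, read 8.01, 8.10 and 8.16 and then 3.54, 3.81 and 3.81, a 20.7-fold fall to just above background. Its OP9-GFP values were 3.53, 3.60 and 3.48. Tal1 and Ets1, chosen for the plot of factors after their values were seen, fell by 1.99 and 2.44.

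Irf4, a factor of lymphoid and myeloid cells, had the largest rise. It read 6.77, 6.77 and 6.98 and then 9.56, 9.54 and 9.65, a log2 difference of 2.74 (SE 0.07, adjusted p = 4.45e-14), though a dimmer probe set differed by 0.23. Cebpb, a driver of macrophage genes, rose by 1.83 (0.78 on a second probe set), Cebpd by 1.47 and Spi1, which encodes PU.1, by 1.38. Spi1 read 8.77, 8.82 and 8.84 and then 10.19, 10.28 and 10.11, with no overlap. Mitf, of the family that controls lysosome genes, rose by 1.69 and Id3, an inhibitor of E proteins, by 1.59. Cebpa, Ikzf1 and Gfi1, chosen after their values were seen, differed by -0.09, 0.06 and 0.10 and were not called. The median of the list was -0.33, and -0.17 without the third Compound E array.

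**Figure D4:**
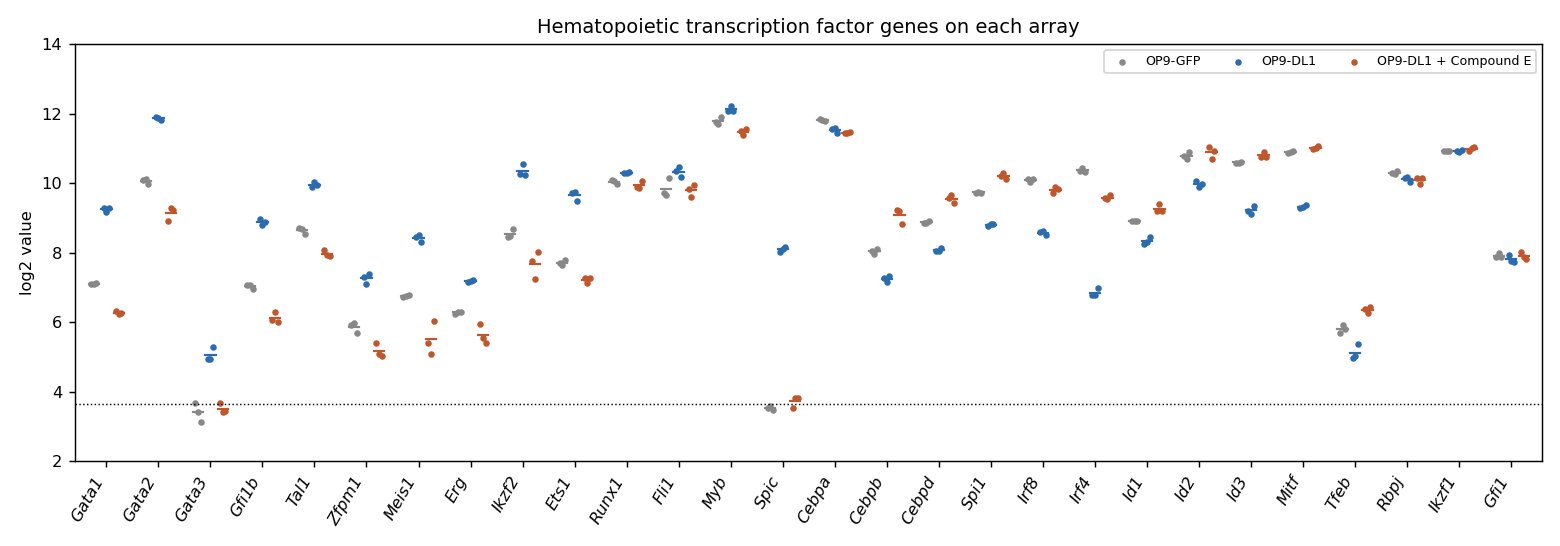
Log2 value on each array (bar at the mean of 3) of hematopoietic transcription factor genes on OP9-GFP (grey), OP9-DL1 (blue) and OP9-DL1 with Compound E (orange), with the background value of 3.64 dotted. All orange points of Gata1, Gata2, Gfi1b, Meis1 and Spic lie below all blue ones, and those of Irf4, Cebpb, Spi1 and Mitf lie above them, while Cebpa, Rbpj, Ikzf1 and Gfi1 were not called.

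Platelet and megakaryocyte genes fell almost as a block: 32 of 35 were lower, 26 of them at least 2-fold, with a median of -2.08 against 0.08 for all genes. Slc35d3, a transporter gene needed for platelet dense granules, read 11.27, 11.33 and 11.08 on OP9-DL1 and 7.06, 6.69 and 6.90 with Compound E, a 20.3-fold fall (adjusted p = 6.41e-15). The fibrinogen receptor chain Itga2b fell 5.91-fold, from 10.32, 10.27 and 10.35 to 7.79, 7.84 and 7.61. Pf4, platelet factor 4, went from 12.52, 12.56 and 12.46 to 10.82, 10.82 and 10.87, a 3.20-fold fall, and stayed bright. None of these groups overlapped.

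Gp5, Gp9 and Vwf, which serve platelet adhesion, fell 5.47-fold, 4.31-fold and 4.54-fold, and the platelet tubulin Tubb1 4.23-fold. Lat, an adaptor shared with T cells, fell 7.30-fold, Trpc6 6.41-fold and Mmrn1 6.36-fold, the last with -0.41 on a second probe set. The summed log2 level of the list was 16.03 to 16.07 on OP9-DL1, 14.73 to 14.85 with Compound E and 15.05 to 15.12 on OP9-GFP. Mpp1 (1.02, with 0.23 on a second probe set) and Thbs1 (0.24) were the members that rose, and both are made in many cell types.

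Promoter stretches of a pair of these genes are shown because both hold the letters AGATAA, the core read by GATA factors, close to the start. They come from RefSeq (GRCm38.p6), written 5′ to 3′ along the gene's strand, with the motif on either strand in capitals. That of Gp5 is chr16:30310842-30310891 on the minus strand, from base -110 to base -61, where -1 is the last base before the start. That of F2rl2, which encodes a thrombin receptor subunit and fell by 2.36, is chr13:95696810-95696849 on the plus strand, from -110 to -71.
Gp5: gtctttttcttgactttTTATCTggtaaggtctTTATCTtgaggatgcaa
F2rl2: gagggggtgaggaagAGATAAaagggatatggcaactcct
Of the 26 megakaryocyte genes with a promoter in the table, 8 (30.8%) hold AGATAA on either strand in the 300 bases searched, and so do 7 of 20 erythroid genes (35.0%). Over all 14452 genes with a promoter the share was 9.54%. Mpp1, which rose, is among the 8. Interferon-response genes, described below, held AGATAA in 22.7% of their promoters. A match is a string of letters, not a site shown to be bound.

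Erythroid genes were mixed, with 14 of 28 lower, 3 higher and 11 not called, and a median of -0.39. Hemgn, a nuclear protein of erythroid progenitors, read 10.42, 10.43 and 10.37 and then 6.72, 6.29 and 6.62, a 14.5-fold fall (adjusted p = 4.57e-14). Car2, carbonic anhydrase 2, went from 11.85, 11.86 and 11.93 to 8.66, 8.47 and 8.80, a 9.44-fold fall, and the water channel Aqp1 fell 4.69-fold. Epor, the erythropoietin receptor, fell by 1.81 to near background. Klf1, the erythroid Krüppel factor, differed by -0.48 (adjusted p = 0.08, and 0.0317 without the second Compound E array), and Hba-a1 was at background. Of the 3 called higher, Fech differed by 0.32, while Add2 and Hbb-bh1, the latter at background in both groups, were lost without OP9-DL1 replicate 1, OP9-DL1 replicate 2 or Compound E replicate 2. Add2 was lost also without OP9-DL1 replicate 3 or Compound E replicate 3, and Hbb-bh1 without Compound E replicate 1 (adjusted p up to 0.146, for Add2). Their other probe sets ranged from -0.06 to 0.23 (Add2), from -0.25 to 0.07 (Hbb-bh1) and from 0.14 to 0.16 (Fech).

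Mast-cell and basophil genes also fell, 16 of 23, with 3 higher and a median of -1.41. Gzmb, granzyme B, which mast cells and cytotoxic lymphocytes make, read 11.26, 11.30 and 11.20 on OP9-DL1 and 4.36, 5.25 and 4.19 with Compound E. At 101-fold (log2 difference -6.66, SE 0.20) this was the largest fall among genes above background in both groups, and OP9-GFP gave 6.04, 5.96 and 5.57. The carboxypeptidase Cpa3 fell 6.77-fold, and the chains Fcer1a and Ms4a2 of the IgE receptor 6.76-fold and 6.53-fold. Fcer1a read 8.33, 8.18 and 8.44 and then 5.50, 5.54 and 5.63. The mast-cell proteases Mcpt1 and Mcpt4 reached background with Compound E and fell at least 17.7-fold and at least 5.13-fold. In both, the OP9-GFP arrays were at background as well, at 2.45 to 3.07. Mitf, Hpgds and Fcer1g rose, by 1.69, 0.86 and 0.74, and macrophages express these 3 genes too.

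Of 28 early T-cell genes, 16 fell, 14 of them at least 2-fold, 4 rose and 8 were not called, with a median of -0.80. Cd7 read 7.98, 7.63 and 7.93 and then 4.49, 3.94 and 4.19, a 12.5-fold fall with no overlap. Probe sets for the T-cell receptor beta segments Trbv13-2 and Trbv1 fell 22.7-fold and at least 45.1-fold, but a second one for Trbv1 differed by 0.05. Granzyme A (Gzma) fell at least 7.19-fold and Bcl11b by 1.04, the latter a call that the mean of its probe sets lost (-0.22, the others lying at -0.02 to 0.13). Defining genes of later T cells were low throughout: Cd3e was at background, and Cd3g read 4.004, 3.81 and 5.11 and then 2.86, 3.06 and 3.22. The 2 clear rises were Cd2 (3.92, 3.54 and 4.14, then 5.998, 6.12 and 5.82) and Cd28 (6.69, 6.86 and 6.36, then 8.50, 8.33 and 8.16). Both lay near their OP9-GFP values, 5.76 to 5.92 and 8.68 to 8.83. The other calls of rises, Zap70 and Themis, were lost without OP9-DL1 replicate 2 or Compound E replicate 1, Zap70 also without OP9-DL1 replicate 1 or Compound E replicate 2 (adjusted p up to 0.138 for Zap70), and their other probe sets gave -0.02 to 0.22. With the probe sets of each gene averaged the median was -0.37.

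Genes of stem and early progenitor cells were lower in 29 of 40 cases and higher in 6, and their median was -0.80. Kit, the stem cell factor receptor by which LSK cells are sorted, read 10.25, 10.36 and 10.05 and then 8.27, 8.05 and 8.12, a 4.22-fold fall (adjusted p = 1.44e-11). Tek, the angiopoietin receptor, went from 9.27, 9.08 and 9.31 to 6.09, 5.57 and 5.55, an 11.2-fold fall, and Slamf1 fell 4.60-fold (-1.58 to -1.01 on other probe sets). Cd34 did not follow, with 11.02, 10.99 and 10.97 and then 10.98, 10.74 and 10.96 (difference -0.10, not called). Flt3, the receptor of lymphoid-primed and dendritic progenitors, rose by 1.05, from 6.43, 6.70 and 6.37 to 7.55, 7.60 and 7.52. Hoxb4 rose by 1.17, with 0.25 on a second probe set, and Txnip, Ifitm1 and Cd48 by 0.68, 0.71 and 0.61.

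Macrophage and monocyte genes rose in 36 of 42 cases, 25 of them at least 2-fold, with 2 lower and a median of 1.27. Gpnmb, a glycoprotein of lipid-laden macrophages, read 6.49, 6.53 and 6.71 on OP9-DL1 and 11.25, 11.13 and 11.14 with Compound E, a 24.2-fold rise (adjusted p = 9.10e-17), with 5.45 on a second probe set. On OP9-GFP the gene read 11.17, 11.11 and 11.13, within the range of the treated arrays or just below it. Msr1, a scavenger receptor, went from 6.42, 6.39 and 6.66 to 10.52, 10.51 and 10.54, a 16.4-fold rise. Fcgr1, the high-affinity IgG receptor, went from 6.28, 6.41 and 6.39 to 10.25, 10.31 and 10.33, a 15.3-fold rise. No array of one group came near the other.

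Trem2, a lipid-sensing receptor, rose 13.2-fold (0.50 on a second probe set), and Ms4a7 15.3-fold (0.65). The surface protein Adgre1 (F4/80) read 7.91, 7.48 and 7.72 and then 10.57, 10.61 and 10.48, a 7.23-fold rise. Cd68 rose 5.33-fold, Mrc1 5.20-fold and Csf1r, the receptor for the macrophage growth factor, 2.44-fold, from 11.35, 11.19 and 11.38 to 12.64, 12.61 and 12.53. Cd163, the hemoglobin scavenger receptor, went the other way, from 5.68, 5.81 and 6.13 to 4.70, 4.45 and 4.14 (fall by 1.44), and so did Vcam1 (fall by 0.56, with -0.69 to -0.11 on other probe sets), which feeder cells also make. The summed log2 level of the list was 15.55 to 15.57 on OP9-DL1, 16.65 to 16.72 with Compound E and 16.47 to 16.52 on OP9-GFP.

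Lysosome genes rose nearly without exception: 39 of 40 were higher, 16 of them at least 2-fold, none fell, and the median was 0.93. Legumain (Lgmn), an endolysosomal protease, read 5.44, 5.32 and 5.51 and then 8.27, 8.16 and 8.27, a 7.01-fold rise. Cathepsin H (Ctsh) rose 3.72-fold, the cholesterol exporter Npc1 3.66-fold, progranulin (Grn) 2.88-fold, and Cln3 and Ppt1 2.78-fold and 2.77-fold. Of 26 genes of lipid handling, 17 rose and 5 fell, with a median of 0.67. Apoc2, an activator of lipoprotein lipase, read 7.57, 7.30 and 7.76 and then 11.67, 11.68 and 11.71, a 17.7-fold rise. Fabp7, a fatty-acid binding protein, rose 16.8-fold, Lrp1 4.39-fold, Apoc1 3.75-fold and Apoe 3.08-fold. Vldlr, a lipoprotein receptor, fell 14.1-fold, from 9.71, 9.49 and 9.59 to 5.45, 5.93 and 5.97, and Fabp4, which adipocyte-like feeder cells also make, fell by 1.70 (0.19 on its furthest other probe set).

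Of 19 genes of cholesterol synthesis, 10 rose, 1 fell (2 without Compound E replicate 1) and 8 were not called, with a median of 0.24 that dropped to 0.12 over the mean of probe sets. Only Mvd exceeded 2-fold, at 1.47. Among 19 genes of iron and heme handling 8 rose and 4 fell, with a median of 0.17. Hfe, a regulator of iron uptake, rose by 1.67 and heme oxygenase (Hmox1) by 1.24, while the iron exporter Slc40a1 fell by 0.91 and the transferrin receptor Tfrc by 0.41.

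Interferon-response genes were the list with the highest median, 1.30. Of 31 measured, 28 rose, 17 of them at least 2-fold, none fell and 3 were not called. Ifi27l2a read 6.31, 6.14 and 6.36 on OP9-DL1 and 9.91, 10.002 and 9.98 with Compound E, a 12.98-fold rise (adjusted p = 3.40e-15). The nucleic-acid sensor Zbp1 went from 5.45, 5.27 and 5.38 to 8.61, 8.85 and 8.83, a 10.5-fold rise. Oas3, an activator of antiviral RNA decay, went from 6.50, 6.52 and 6.36 to 9.21, 9.31 and 9.49, a 7.34-fold rise. Mx1, an antiviral GTPase, rose 7.07-fold, Oas2 5.06-fold and Oasl2 4.38-fold. The groups of all 6 genes were apart, and on OP9-GFP they read between 6.17 (Oasl2) and 9.62 (Ifi27l2a).

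Promoter stretches of 5 interferon-response genes are shown because each holds an interferon-stimulated response element, searched as GAAA repeated after any 2 bases, on either strand. Oas3 is among the genes named by rule, and the others were chosen after their values were seen. The sequences are from RefSeq (GRCm38.p6), along the gene's strand, with the motif in capitals. That of Ifit1 is chr19:34640779-34640828 on the plus strand (bases -110 to -61), and that of Ifit3 chr19:34583369-34583428 on the plus strand (-160 to -101). On the minus strand lie those of Oas1a, chr5:120907526-120907565 (-40 to -1), Oas3, chr5:120777710-120777749 (-90 to -51), and Rsad2, chr12:26456543-26456582 (-130 to -91).
Ifit1: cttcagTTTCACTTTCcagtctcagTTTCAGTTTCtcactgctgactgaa
Ifit3: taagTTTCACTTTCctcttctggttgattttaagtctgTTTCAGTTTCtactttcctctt
Oas1a: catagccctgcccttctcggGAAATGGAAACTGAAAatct
Oas3: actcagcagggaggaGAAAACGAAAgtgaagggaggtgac
Rsad2: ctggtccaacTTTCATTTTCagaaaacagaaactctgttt
The capitals of Ifit1 and Ifit3 mark 2 copies each, and those of Oas1a mark 2 overlapping copies. In these genes the log2 difference was 1.62 (Ifit1), 1.71 (Ifit3), 1.74 (Oas1a), 2.88 (Oas3) and 0.87 (Rsad2), all called. Other probe sets of Rsad2 gave 0.29 to 1.22. Of the 22 interferon-response genes with a promoter in the table, 13 (59.1%) held the motif in the 300 bases, against 3.63% of 14452 genes. Ifit2, Eif2ak2 and Isg20 were the members not called, with -0.03, 0.04 and -0.10, and Eif2ak2 is among the 13 with the motif. Of the 13 Notch targets only 9 had a promoter to search, and Hes1, Hey1 and Myc were among those without one. The letters TGGGAA, the CSL core, were present in 3 of these 9 promoters (33.3%, in Hes5, Hey2 and Ptcra) against 27.5% of all. Of those genes Hes5 and Ptcra were not called and Hey2 was called with both groups at background. The same letters were present in 45.5% of the interferon-response promoters.

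**Figure D5:**
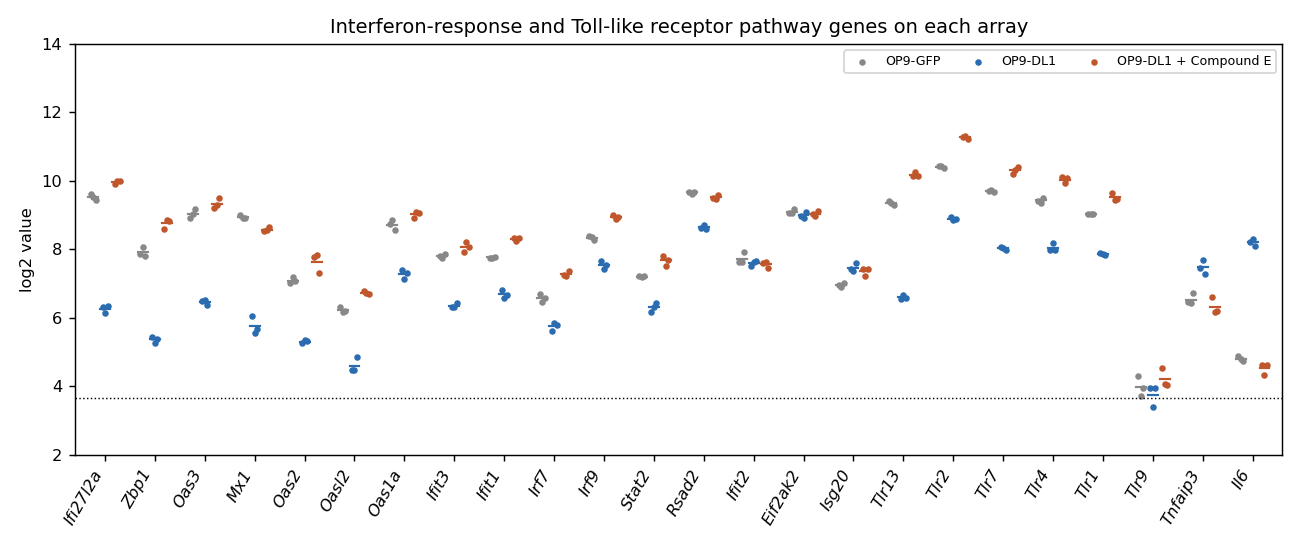
Log2 value on each array (bar at the mean of 3) of interferon-response genes (left) and of Toll-like receptor and NF-kB genes (right) on OP9-GFP (grey), OP9-DL1 (blue) and OP9-DL1 with Compound E (orange), with the background value of 3.64 dotted. Orange points lie above blue ones from Ifi27l2a to Rsad2 and from Tlr13 to Tlr1, the groups of Ifit2, Eif2ak2 and Isg20 overlap, and Il6 and Tnfaip3 are lower on orange points.

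Toll-like receptors, which sense microbial products, and their signalling genes rose in 21 of 25 cases, with 2 lower and a median of 0.81. Tlr13, a sensor of bacterial RNA, read 6.56, 6.67 and 6.57 and then 10.14, 10.25 and 10.13, an 11.9-fold rise. Tlr2 went from 8.94, 8.85 and 8.87 to 11.29, 11.32 and 11.22, a 5.23-fold rise, Tlr7 rose 4.87-fold, Tlr4 3.99-fold and its partner Ly96 3.97-fold. Other probe sets of Tlr4 gave 0.07 to 2.59. The 2 members that fell were Il6 and Tnfaip3, both induced by NF-kB. Interleukin 6 (Il6) read 8.23, 8.30 and 8.10 and then 4.61, 4.33 and 4.62, a 12.9-fold fall (adjusted p = 6.19e-13). Tnfaip3, the inhibitor A20, fell by 1.15, with 0.02 on a second probe set.

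Cytokine receptors rose in 20 of 29 cases, 15 of them at least 2-fold, and fell in 5, with a median of 1.05. Il13ra1 read 7.08, 7.30 and 7.16 and then 9.81, 9.68 and 9.82, a 6.01-fold rise. Csf3r, the G-CSF receptor, rose 3.58-fold, Ifngr2 3.44-fold, Il10ra 3.39-fold, Il6ra 3.18-fold and Il10rb 3.12-fold. Other probe sets differed by 1.03 to 2.89 for Il13ra1, by 0.24 to 0.69 for Il10ra and by 0.77 for Il10rb. Beside Kit, Epor and Il2ra, the members that fell were Il18r1, at least 3.77-fold, and Il21r, by 0.81. Of 21 chemokine genes 6 rose and 8 fell, with a median of -0.06 (-0.19 without Compound E replicate 2). Cxcl3 and Cxcl1, which attract neutrophils, fell 6.30-fold and 4.07-fold, and Ccl22 fell at least 2.16-fold. Ccl6, Cxcl10 and Ccl9, which attract myeloid cells and T cells, rose 4.15-fold, 2.37-fold and 2.29-fold. Ccl6 read 8.96, 8.57 and 8.59 and then 10.70, 10.73 and 10.84. Cxcl1 had the same value, 6.49, on all 3 treated arrays. Exactly equal values on 2 or more arrays of either group, which lower the spread, occurred in 2230 genes (12.3%). Ties among the OP9-GFP arrays, which also entered the spread, are not in that count. Pf4 and Msr1, for example, had 1 value on all 3 of those arrays. Of the 18193 genes, 14217 had no tie within any of the 3 groups.

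Both lists of neutrophil granule genes held calls in both directions. Of 11 genes on the primary granule list, 4 rose, 4 fell and 3 were not called, with a median of 0.02. Myeloperoxidase (Mpo) read 12.88, 12.87 and 12.82 and then 12.87, 12.88 and 12.89, a difference of 0.02 that was not called. Elane, Prtn3 and Ctsg, serine proteases of the same granules, rose by 0.22, 0.29 and 0.39, and Ms4a3 by 0.17. None of the falls was that of a granule protease. They were those of Nkg7, a granule protein of cytotoxic cells that is also on this list, Cst7 (-0.40), Igfbp4 (-0.27) and Calr (-0.23). Only Nkg7 passed 2-fold, with a 5.36-fold fall. Of 26 genes on the secondary and late granule list, 14 fell and 10 rose. That list also holds genes whose products are not granule contents, among them Arg2, Csf3r and Ltb4r1, so its counts are not of granule proteins alone. Lactoferrin (Ltf) read 11.02, 10.89 and 11.08 and then 9.68, 9.69 and 9.43, a 2.63-fold fall, and the cystatins Stfa2l1 and Stfa3 fell 10.4-fold and 3.52-fold. In the other direction, Mmp8, neutrophil collagenase, read 5.98, 5.42 and 5.93 and then 11.22, 11.16 and 11.09, a 41.6-fold rise (adjusted p = 2.93e-15). The enzyme arginase 2 (Arg2), one of the members that are not granule contents, rose 15.8-fold, from 6.74, 6.74 and 6.91 to 10.82, 10.71 and 10.81. The median of -0.31 was 0.03 over members without tied values.

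Of 8 eosinophil genes 3 fell, Siglecf by 1.88, Alox15 by 1.04 and Prg2 by 0.79, and none rose. The median was -0.24, with -0.41 without Compound E replicate 1 and -0.11 without replicate 3. Epx, eosinophil peroxidase, stayed between 3.73 and 4.16 (difference 0.16, not called). Of 12 complement genes, 5 rose and 2 fell, with a median of 0.18. Properdin (Cfp) rose 5.39-fold, from 9.09, 9.10 and 9.23 to 11.58, 11.64 and 11.49, and the receptors C5ar1 and C3ar1 rose 5.36-fold and 3.94-fold. Second probe sets differed by only 0.83 (Cfp) and 0.11 (C5ar1). The membrane inhibitors Cd55 and Cd59a fell 9.23-fold and 3.69-fold. C1qb, of the macrophage C1q complex, read 6.91, 6.90 and 7.21 and then 6.98, 6.69 and 6.71, a difference of -0.21 that was not called, whereas on OP9-GFP it read 9.35, 9.40 and 9.31. Calls of the smaller rises, C2 and Cr1l, were lost without OP9-DL1 replicate 1, OP9-DL1 replicate 2 or Compound E replicate 2 and, for Cr1l, without OP9-GFP replicate 1 or 2 or Compound E replicate 1 (adjusted p 0.0549 for C2 to 0.154 for Cr1l). Other probe sets of C2 gave 0.06 to 0.21 and those of Cr1l -0.58 to -0.12.

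Genes of dendritic cells and MHC class II went both ways, 8 higher and 8 lower of 23, with a median of -0.03 (0.10 without OP9-DL1 replicate 3). Ccr7, the receptor that guides mature dendritic cells, read 7.53, 7.53 and 7.50 and then 3.20, 3.22 and 3.38, a fall of at least 16.2-fold to background, where OP9-GFP also lay (2.84 to 3.26). Itgax, which encodes CD11c, fell 13.98-fold, from 8.73, 8.87 and 8.96 to 5.07, 5.06 and 5.01. Cd83 and the class II chain H2-Eb1 fell 2.30-fold and 2.10-fold. Cd86, a costimulatory ligand, rose 3.74-fold, from 6.84, 6.90 and 6.92 to 8.85, 8.81 and 8.71, and the class II activator Ciita rose by 0.79, with 0.24 on a second probe set.

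Genes of B cells and lymphoid progenitors had 6 members higher and 7 lower of 24, with 9 at background in both groups and a median of 0.01. Ighm, the immunoglobulin mu chain, read 6.76, 6.75 and 6.97 and then 9.44, 9.59 and 9.36, a 6.22-fold rise, though its 10 other probe sets ranged from 0.06 to 2.52. Btla, an inhibitory receptor, rose 4.65-fold, from 7.22, 6.94 and 7.17 to 9.23, 9.39 and 9.37. Cd22 fell 11.9-fold, from 7.59, 7.94 and 7.71 to 3.97, 4.22 and 4.32, and the adaptor Lax1 fell at least 7.50-fold. Cd79a was at background and Pax5, with both groups at background, was called higher by 0.35 (0.02 on a second probe set), a call lost without OP9-DL1 replicate 1, 2 or 3 or Compound E replicate 1 (adjusted p up to 0.144).

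Among 20 leukocyte integrins 9 rose and 9 fell, with a median of -0.04. Itgam (CD11b) read 4.39, 5.16 and 5.22 and then 7.12, 6.88 and 6.82, a 4.04-fold rise, and Itgb5, Itgb7 and Itgb2 rose 3.44-fold, 3.16-fold and 2.91-fold. The platelet chain Itgb3 fell 3.66-fold, from 12.40, 12.38 and 12.37 to 10.47, 10.52 and 10.55, and the laminin receptor chain Itga6 fell by 0.82.

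Of 34 genes of ribosome biogenesis and the response to MYC, 27 fell, none rose and none reached 2-fold, with a median of -0.37. The pseudouridine synthase Dkc1 read 10.96, 10.89 and 11.00 and then 10.20, 10.05 and 10.06 (fall by 0.84, SE 0.06), and Nolc1 and the polyamine enzyme Odc1 fell by 0.82 and 0.74. Other probe sets of Nolc1 gave -0.29 to -0.28. The letters CACGTG, an E-box that MYC can bind, were present in 9 of 28 of their promoters (32.1%), against 10.2% of all. Of 29 cytosolic ribosomal protein genes 9 fell and none rose, with a median of -0.07. With arrays centred over all probe sets, 9 of them were called higher and 2 lower.

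Genes of DNA replication fell in 17 of 36 cases, with a median of -0.19, and none changed by 2-fold. Dut and Rfc2 showed the largest differences, -0.64 and -0.61. The rises, Cdc45 and Gins2, were lost without OP9-DL1 replicate 1, OP9-DL1 replicate 2 or Compound E replicate 2, Cdc45 also without OP9-DL1 replicate 3 and Gins2 without Compound E replicate 3 (adjusted p up to 0.154). Their second probe sets gave -0.10 and 0.04. Mitotic genes went the other way, 13 of 29 higher and 2 lower, with a median of 0.16. Aurora kinase A (Aurka) rose by 0.75, from 8.28, 8.24 and 8.35 to 9.12, 9.16 and 8.82, and Kif23 by 0.69. Other probe sets differed by 0.17 for Aurka and by 0.19 to 0.82 for Kif23. Of the 2 calls of falls, Tpx2 was lost over the mean of its probe sets (the others gave 0.34 to 0.48), and Mad2l1 without OP9-DL1 replicate 1 or 3 or Compound E replicate 2 or 3 (adjusted p up to 0.12). Centred over all probe sets, 23 mitotic genes were called higher and the replication median was -0.06.

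Of 25 genes of G1 control, 9 rose and 5 fell, with a median of 0.07. Cdk6, the D-cyclin kinase, read 11.82, 11.90 and 11.86 and then 10.65, 10.54 and 10.68, a 2.36-fold fall, and its partner Ccnd2 fell 2.33-fold, from 11.20, 11.17 and 11.25 to 9.99, 9.84 and 10.12. The S-phase activator E2f2 rose 4.13-fold, from 7.75, 7.77 and 7.73 to 9.85, 9.79 and 9.75, and cyclin E1 (Ccne1) rose by 0.70. Oxidative phosphorylation genes differed little, with 15 of 42 higher, 3 lower, none by 2-fold and a median of 0.07 beside 0.08 for all genes. Centred over all probe sets, 30 were called higher. Their largest difference was that of Sdhb, 0.63.

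In the Bcl2 family, which sets the threshold of cell death, 6 of 15 rose and 5 fell, with a median of 0.21. Bcl2, the founding survival gene, fell 2.42-fold, from 9.28, 9.34 and 9.20 to 8.17, 7.82 and 7.997. The death-promoting Bcl2l11 (Bim) rose 2.57-fold, from 10.42, 10.44 and 10.31 to 11.68, 11.81 and 11.76, and Bmf rose 4.53-fold, with 0.17 to 0.48 on its other probe sets. Mcl1, a further survival gene, rose by 0.33. Among 21 genes of the p53 response 12 fell and 6 rose, with a median of -0.29. Perp fell 6.40-fold, from 9.63, 9.51 and 9.59 to 6.93, 6.71 and 7.05, and Fas, the death receptor, rose 5.39-fold, from 6.42, 6.39 and 6.85 to 8.93, 9.09 and 8.93. Cdkn1a, the p21 gene that p53 induces, rose by 0.27.

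Of 30 immediate early and stress genes, 19 fell and 5 rose, with a median of -0.36 (-0.56 without genes that held tied values). The MAP kinase phosphatase Dusp5 read 11.74, 11.83 and 11.76 and then 9.63, 9.60 and 9.91, a 4.18-fold fall, and Egr2 and Fosb fell 3.59-fold and 2.77-fold. Atf3, a stress factor, rose 3.24-fold, from 7.48, 7.45 and 7.60 to 9.16, 9.16 and 9.29.

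Genes of the stromal feeder were lower with Compound E in 35 of 44 cases, 14 of them at least 2-fold, and higher in 4, with a median of -0.72. The matrix genes Ccn2 and Ccn1 showed large differences: Ccn2 read 11.10, 11.21 and 10.95 and then 8.57, 8.64 and 8.62 (fall by 2.48), and Ccn1 fell by 1.74. Pdgfrb, a receptor of mesenchymal cells, fell by 1.61. Other feeder genes moved less, with differences of -0.49 for Cxcl12, -0.52 for Sparc, -0.53 for Col1a1 and -0.74 for Kitl, the ligand of Kit. Further probe sets ranged from -2.31 to -0.16 for Ccn1, from -0.75 to -0.15 for Cxcl12, from -0.58 to 0.27 for Sparc and from -0.73 to -0.36 for Kitl, and that of Col1a1 gave -0.29. The summed log2 level of the list was 16.27 to 16.30 on OP9-DL1, 15.96 to 15.98 with Compound E and 15.95 on OP9-GFP. Of the members that rose, Tgfbi (0.84) and Fn1 (0.42) are made by macrophages as well, and Lgals1 and Vim rose by 0.19 and 0.11, the latter lost without OP9-DL1 replicate 2 or 3 or Compound E replicate 1 or 3 (adjusted p up to 0.111). The part of feeder RNA in the other falls was not tested. Endothelial genes fell in 7 of 16 cases, led by Tek, Tie1 and Esam, which stem cells and megakaryocytes also express, whereas Cdh5 was at background and Kdr differed by -0.04 (not called), and the median was -0.10.

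Ranked by size among called genes without overlap, clone-like symbols left out, the largest rises above background not yet described were those of Saa3, Bst1, Pid1, Olfm1, Serpinb8, Ednrb and Shtn1. Saa3, an acute-phase apolipoprotein that macrophages make, read 7.37, 7.44 and 7.66 on OP9-DL1 and 12.26, 12.03 and 12.20 with Compound E, a 25.6-fold rise (adjusted p = 3.06e-16). Bst1, an ectoenzyme of myeloid and stromal cells, rose 25.3-fold, from 5.29, 5.18 and 5.47 to 9.94, 9.98 and 9.997, and its second probe set gave 5.43. Pid1 rose 20.3-fold, with 0.32 to 1.06 on its other probe sets, Olfm1 16.6-fold, Serpinb8 14.3-fold, Ednrb, an endothelin receptor, 14.04-fold (0.48 to 0.66 on others) and Shtn1 13.5-fold. From background on OP9-DL1, Cd300lg rose at least 10.4-fold, Slfn5 at least 9.58-fold, Kcnk13 at least 7.41-fold, Slamf7 at least 7.25-fold and Entpd3 at least 7.22-fold. Other probe sets differed by 1.39 to 2.61 for Slfn5 and by 0.30 for Kcnk13. Klk1b11, Fam83f and Adgb rose at least 5.60-fold, 5.31-fold and 4.87-fold.

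Among falls, Adamdec1, a metalloprotease of the ADAM family, went from a bright level to background. It read 10.001, 9.95 and 9.96 on OP9-DL1 and 2.92, 3.00 and 3.31 with Compound E, a fall of at least 88.8-fold (adjusted p = 1.585e-15), and OP9-GFP gave 3.04, 3.06 and 3.10. It was thus bright on the untreated OP9-DL1 arrays and at background on the other 6. Scin, an actin-severing protein of megakaryocytes and other secretory cells, fell 15.98-fold, from 11.10, 11.07 and 10.91 to 6.87, 7.12 and 7.10. Rgs1, a regulator of G-protein signalling, fell 14.3-fold, the sialyltransferases St3gal6 and St8sia6 16.1-fold and 13.8-fold, Klk8 13.6-fold and Homer2 13.1-fold. Further probe sets of St3gal6 ranged from -4.33 to 0.22 and those of Homer2 from -2.38 to 0.04. To background fell the nuclease gene Dnase1l3 (at least 18.0-fold, with -0.69 on a second probe set), Serpinb6b (at least 14.1-fold), Pcyt1b (at least 9.92-fold, with -1.07 on a second probe set) and Slc45a3 (at least 9.82-fold).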

How the data were processed

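Expression was measured on 9 single-colour oligonucleotide arrays, of which 6 were compared. The authors deposited log2 values, 1 per probe set and array. MAS5 and GCRMA 2.4.1 are named in the submitters' processing notes, without a role. Folds against groups at background are given as lower bounds. Of 45101 probe sets, 34945 had 1 gene symbol in the platform annotation, 932 several, 9160 none and 64 were controls. For 34741 the symbol was updated through a RefSeq table (GRCm38.p6). Each gene was read by the probe set that was brightest on average over 9 arrays, and 9183 genes had only 1. No value was normalized again or filtered.

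Groups came from the sample titles. The test was limma 3.58.1 under R 4.3.3 (lmFit on 9 arrays in 3 groups, then eBayes with a trend on intensity, two-sided), with Benjamini-Hochberg adjustment over all genes and a threshold of 0.05. The SE is that of the model. Arrays have no depth, and 3 a group limit the precision. The procedure was tested on simulated data with independent noise, no tied values and few changed genes. That test does not cover the ties or the large share of genes called here. The background value came from bacterial probe sets other than those of spiked transcripts. It depended on 1 array, Compound E replicate 2, as the other array maxima ran from 3.13 to 3.45.

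Genes were named by rule: the 15 largest rises and 15 largest falls above background without overlap, the 8 of each with 1 group at background (ranked by the bound), every Notch list member, up to 6 called members a direction of each other list, and cell type markers. Genes outside it (F2rl2, Ifit1, Ifit2, Ifit3, Oas1a, Rsad2, Eif2ak2, Isg20, C1qb and those only in the plots) were chosen after their values were seen. The rankings by size skipped clone-like symbols, such as those made of Gm and digits or holding Rik. The comparison, the lists and the rule were chosen with earlier results of these data known. Promoters (250 bases before to 50 after the start) were matched by symbol for 14452 of 18193 genes. Same-numbered arrays did not deviate together. Alternatives were log2(value + 32), quantile normalization, centring on array medians, filters on dim genes and tied values, averaging the probe sets of a gene, all probe sets, no intensity trend, the 6 arrays alone, the replicate block and leaving out each array.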

Additional observations from a re-analysis of the deposited data

Results flagged for a closer look

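The gene comparison left out 9160 probe sets that carry no gene symbol, and some of them gave strong signals. Tested with the same limma model over all probe sets, with Benjamini-Hochberg adjustment, 930 were higher and 1793 lower with Compound E. Of all 45037 probe sets, 8598 were higher and 8999 lower. The unnamed ones thus fell at nearly the general share and rose at a smaller one. Only unnamed probe sets that were called and above background in both groups were ranked by size. Among these the largest fall was that of probe set 1445895_at, from a mean of 9.92 on OP9-DL1 to 4.92 with Compound E (log2 difference -5.01, SE 0.09, adjusted p = 3.41e-15, n = 3 arrays a group). The largest rise among these was that of probe set 1456563_at, from 4.59 to 9.33 (log2 difference 4.75, SE 0.13, adjusted p = 1.67e-13). Single arrays were not tested for standing apart, since each group held 3.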

How the results depend on the processing

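Of 4574 higher and 3926 lower genes, 814 and 900 also changed by at least 2-fold. Over all 45037 probe sets 8598 were higher and 8999 lower. With arrays centred over all probe sets, a choice made after seeing the data, 8041 genes were higher and 2876 lower. Leaving out 1 array at a time gave 3835 to 4636 higher and 3521 to 3937 lower. Among called genes 53.8% were higher, against 49.6% after quantile normalization, where the median of all genes was 0.02. With each array centred on its median gene that median was 0.13.

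With the replicate number as a block, 4442 genes were higher and 3853 lower. The numbers share no origin in the labels. Over genes above background, the deviations of same-numbered arrays from their group means correlated at -0.017, -0.109 and -0.149. Those of differently numbered OP9-DL1 and Compound E arrays correlated at -0.025 to 0.127. Of 395 named genes the block ended the calls of Cr1l (adjusted p = 0.0646) and Rrm2b (0.0728) and no others.

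When the probe sets of a gene were averaged, 2 small falls became rises, Rps4x (-0.16, then 0.20, adjusted p = 0.0294) and Bcl2l2 (-0.21, then 0.29, adjusted p = 0.0325), and 21 named genes lost their call. Quantile normalization ended 11 calls, a fit without the intensity trend 17, and the fit on 6 arrays 6. The causes were not tested. Precision is limited by 3 arrays a group, and below 3.64 a difference has no reliable size.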
